A study of Mus musculus with 2 samples.

Results

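Pi16 fibroblasts of injured mouse tendon were described here in 2 single-cell RNA libraries. They were chosen by transcript counts: a cell had to hold at least 2 unique molecular identifiers (UMIs, each standing for 1 captured transcript) of Pi16, at most 1 of Gdf10 and at most 4 of Kera. It also had to be stromal, with Col1a1, Col1a2 and Col3a1 making up at least 2% of its UMIs and Ptprc and Pecam1 together giving at most 1 UMI. The rule selected 2519 cells of the 20036 kept in both libraries, or of the 11078 stromal cells among them. Pi16, Gdf10, Kera, the collagens, Ptprc and Pecam1 were used to choose the cells, so their levels are given as a description.

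The tissue was the injured tendon area of 12-week-old mice, dissected 14 days after the operation. One library came from TrkA WT animals and carries the title Control. The other came from TrkA F592A animals and carries the title INMPP1, the name of a kinase inhibitor to which the F592A form of the receptor is sensitive. The cells of 3 mice were pooled in each library, and the pooled mice cannot be separated. Each genotype was therefore 1 sample, no difference between genotypes has a replicate check, and genotype and library cannot be told apart. The sources used here do not say whether the TrkA WT animals received the inhibitor, nor give its dose and schedule. A point mutation is not visible in these counts. Levels are given below in CPM, counts scaled to a class total of 1000000.

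Adventitial fibroblasts lie around vessels and in the loose connective tissue sheaths of many organs. Pi16 encodes a secreted peptidase inhibitor, and together with Dpp4, Cd34 and Ly6c1 it marks a fibroblast state found across tissues that is regarded as a reserve for more specialised fibroblasts. C3 is the central complement component, Cxcl14 a chemokine, Dpp4 a cell-surface dipeptidase and Serpina3n a secreted serine protease inhibitor. Pi16 (ENSMUSG00000024011) lies at chr17:29317680-29330593 on the plus strand and Dpp4 (ENSMUSG00000035000) at chr2:62330073-62412231 on the minus strand (GRCm38, GENCODE vM21). TrkA is a neurotrophin receptor, and its signalling in sensory nerves is known to influence repair of skeletal tissue.

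The WT and F592A libraries held 14868 and 10677 barcodes, of which 11485 and 8551 were kept. They shared 764 barcodes, of which 114 in WT and 113 in F592A passed the filters, and all of these were left out. Pi16 fibroblasts numbered 1365 and 1154, with a median of 22524 and 25677 UMIs and 4443 and 4516 genes per cell, close to the 22263 and 24329 UMIs of the other stromal cells. Scrublet marked 2.34% and 1.65% of the Pi16 fibroblasts as doublets. Gm42418, a gene model that overlaps ribosomal RNA repeats, took 37441 CPM of the WT and 91958 CPM of the F592A Pi16 fibroblasts, and its log2 ratio was nearly the same in the other stromal cells (1.30 and 1.32). RNA of other cells was low but unequal. The 7 macrophage markers summed to 266 CPM in WT and 125 CPM in F592A Pi16 fibroblasts, against 25801 and 19432 CPM in leukocytes, and the 4 red cell genes to 55.9 and 9.19 CPM. Endothelial markers summed to 4.95 and 4.10 CPM, Schwann cell markers to 2.40 and 2.22 CPM and adipocyte markers to 0.0300 and 0.293 CPM.

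Pi16 had no gap in its distribution at the minimum of 2 UMIs. Among stromal cells within the Gdf10 and Kera limits, 59.0% of WT and 48.8% of F592A cells held no Pi16 UMI, and the share with 30 or more was 3.47% and 7.72%. Exactly 2 UMIs were held by 238 WT and 165 F592A members, while 595 and 318 stromal cells within the Gdf10 and Kera limits held 1 UMI and lay just outside. The median member held 7 Pi16 UMIs in WT and 8 in F592A, and the highest 213 and 568. Pi16 was unevenly spread, and the 10% of members with most of it held 46.0% of its UMIs in WT and 53.7% in F592A. The Gdf10 limit removed 54 WT and 191 F592A cells that had at least 2 Pi16 UMIs, and the Kera limit removed 117 and 155. Pi16 was also found in cells of other types: after every cell was thinned to 5000 UMIs, 2.59% and 3.79% of leukocytes held a Pi16 UMI, against 75.2% and 76.2% of members.

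**Figure D1:**
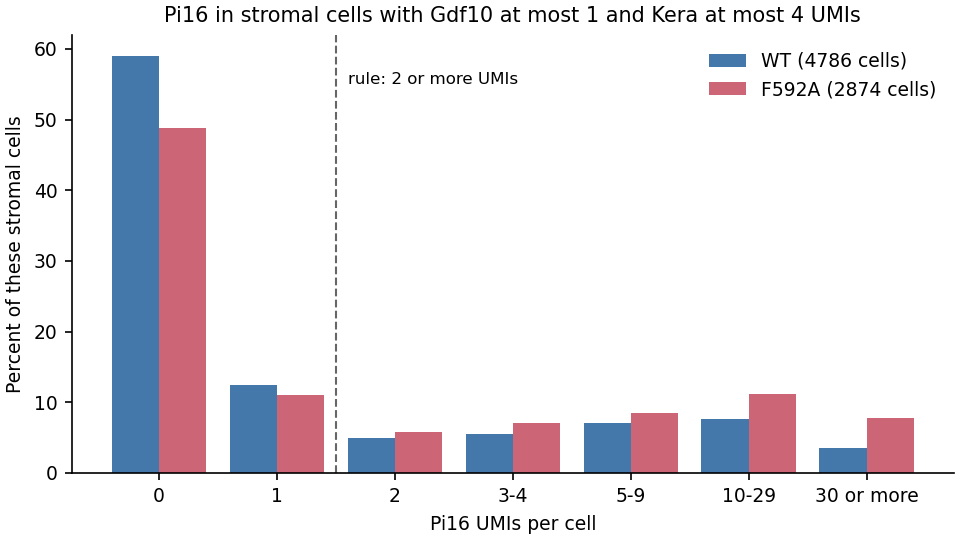
Percent of stromal cells within the Gdf10 and Kera limits (vertical axis) by the number of Pi16 UMIs in the cell (horizontal axis), with blue bars for WT and red bars for F592A. Shares fall from 59.0% and 48.8% at 0 UMIs without a gap at the dashed line, and the F592A bars are the taller ones from 2 UMIs up.

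Because of this gradient, members of at least 5000 UMIs were divided by their Pi16 count after thinning. The low tier (0 or 1 UMI) held 662 WT and 504 F592A cells, the middle tier (2 or 3) 319 and 279, and the high tier (4 or more) 376 and 358. Another 8 and 13 members were too shallow to place.

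The 5 marker genes were not all highest in the same class of cells. C3 stood at 182 (WT) and 183 CPM (F592A) in Pi16 fibroblasts, and Cxcl14 at 199 and 364 CPM. Both were higher still in the stromal cells with at least 2 Gdf10 UMIs, where C3 reached 384 and 388 CPM and Cxcl14 519 and 599 CPM. Serpina3n stood at 175 and 320 CPM in members and at 270 and 213 CPM in the Gdf10 cells, so the order of these classes differed between the libraries. Dpp4 was the one of the 4 that was higher in members than in Gdf10 cells in both libraries, at 21.7 and 14.3 CPM against 7.46 and 2.50 CPM, although the Gdf10 values rest on 9 and 11 UMIs. In cells with at least 5 Kera UMIs, C3 was at 29.4 and 23.9 CPM and Cxcl14 at 37.6 and 61.5 CPM, below every tier of the members.

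After thinning to 5000 UMIs, C3 was detected in 29.9% of WT and 30.1% of F592A members, Cxcl14 in 23.7% and 29.4%, Serpina3n in 36.3% and 44.3%, and Dpp4 in 9.36% and 6.22%. Without thinning these shares were 45.1% and 46.8%, 34.4% and 44.1%, 62.5% and 67.0%, and 25.8% and 16.7%. In thinned endothelial cells the shares were 2.18% and 1.69% for C3, 0.792% and 1.69% for Cxcl14, 3.37% and 1.85% for Serpina3n and 0.198% (1 of 505 cells) and 0 of 593 cells for Dpp4, the last with an exact upper bound of 0.620%. Leukocytes, some of which make C3 and Dpp4, gave 9.70% and 11.7% for C3, 3.04% and 1.86% for Cxcl14, 1.18% and 1.52% for Serpina3n and 1.63% and 2.48% for Dpp4. In the other stromal cells C3 was detected in 16.5% (WT) and 19.0% (F592A) and Cxcl14 in 13.5% and 19.9%. Serpina3n was detected in 19.6% and 27.1% of them and Dpp4 in 2.35% and 2.39%. The Dpp4 share of the F592A low tier, 2.18% (1.09% to 3.87%), was above the endothelial bound. It was close to the values of the leukocytes and of the other stromal cells. None of the 4 genes was found in 42.5% of WT and 38.3% of F592A members, and all 4 in 5 and 3 cells. C3 and Cxcl14 tended to occur together: C3 was present in 58.1% of WT members with a Cxcl14 UMI and 21.2% of those without one, and in 48.5% and 22.4% in F592A.

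**Figure D2:**
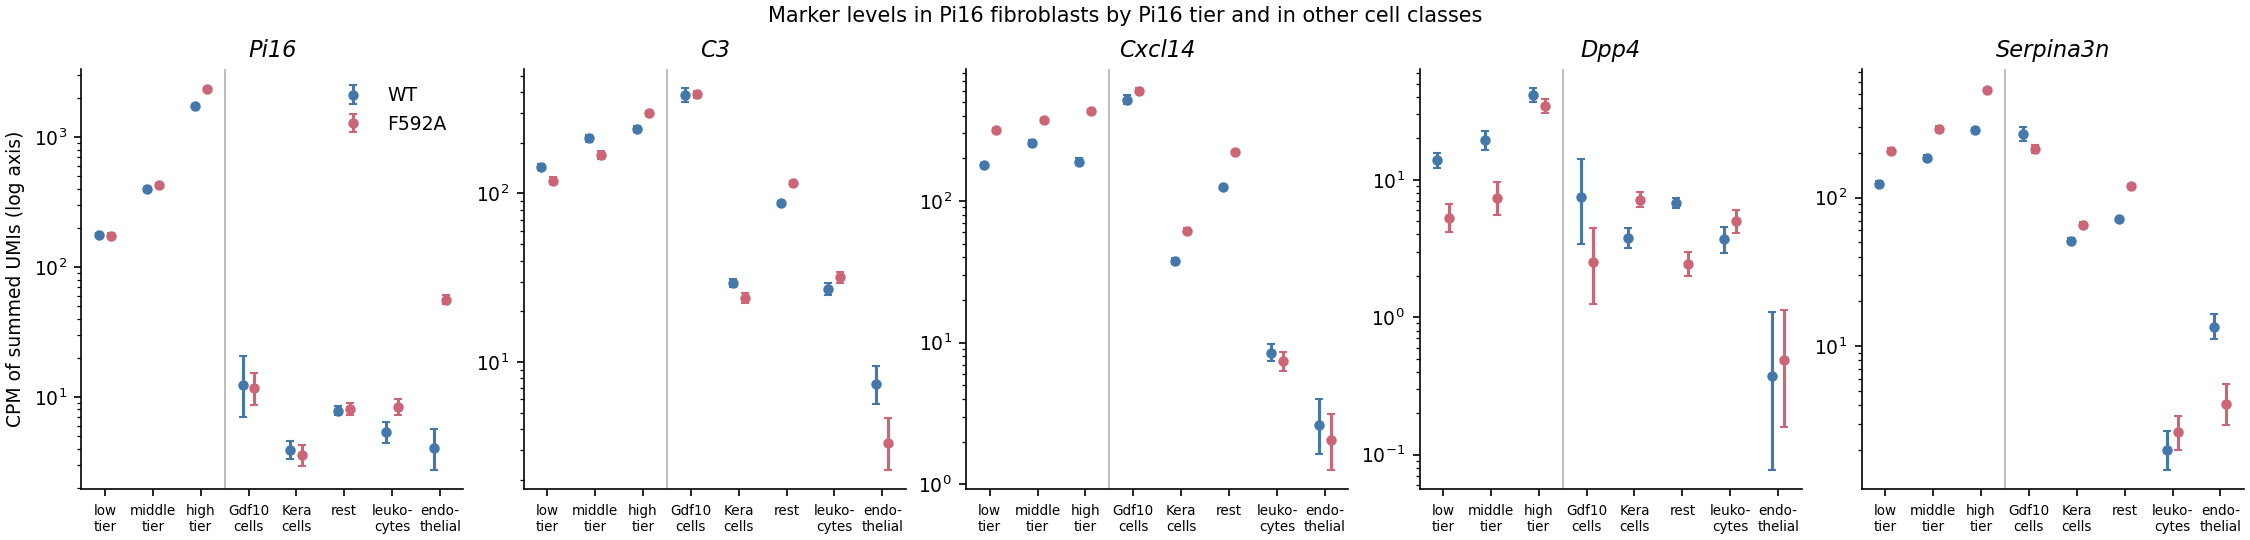
CPM of summed UMIs on a log axis for the 5 marker genes in the low, middle and high Pi16 tiers and in 5 other cell classes, with blue points for WT, red points for F592A and bars for the exact Poisson interval. Dpp4 peaks in the high tier at 41.5 and 34.6 CPM, whereas C3 and Cxcl14 peak in the Gdf10 cells.

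Against all other stromal cells, 60 genes reached a 2-fold higher level in the Pi16 fibroblasts of both libraries (1.14% of 5241 genes compared), and 40 a 2-fold lower one (0.763%). The cells were selected on Pi16, so these counts describe the class. Pi16 itself stood at 593 against 22.5 CPM in WT and at 866 against 51.4 CPM in F592A. The other stromal cells include 168 WT and 340 F592A cells with at least 2 Pi16 UMIs that the Gdf10 and Kera limits removed. In stromal cells within those limits but below 2 Pi16 UMIs, Pi16 stood at 7.82 and 8.09 CPM. Ranked by the smaller of the 2 libraries' ratios, the next gene was Cadm3, a cell adhesion molecule of the nectin-like family. Cadm3 stood at 36.9 against 7.06 CPM in WT and at 34.5 against 6.76 CPM in F592A. Scara5, a ferritin receptor used as a mark of adventitial fibroblasts, followed with 105 against 23.6 CPM and 113 against 26.2 CPM.

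Several of the named genes encode matrix or surface proteins. Efemp1, a fibulin of the elastic fibre system, stood at 78.3 against 20.9 CPM in WT and 58.5 against 15.5 CPM in F592A. Tnxb, the matrix glycoprotein tenascin-X, stood at 309 against 80.2 CPM and 260 against 88.4 CPM. In the Gdf10 cells it was above the members, at 322 and 380 CPM. Cd34 and Cd248, surface sialomucin-type proteins of progenitor and stromal cells, were 1.66 and 1.49 higher on the log2 scale in WT and 1.57 and 1.68 higher in F592A. The other named genes of this group were Ccn3, a matricellular regulator, Emilin2, an elastic fibre glycoprotein, Pcsk6, a proprotein convertase, and Efhd1, Plac8 and Olfml2a. Plac8 stood at 74.2 and 57.7 CPM in members and at 74.6 and 48.7 CPM in the Gdf10 cells. Apart from Tnxb and Plac8, the named higher genes were above the Gdf10 cells in both libraries. Olfml2a differed most between the libraries, with a log2 ratio of 1.52 in WT and 3.05 in F592A. Its level was 32.1 and 30.2 CPM in members and higher, 52.8 and 64.4 CPM, in endothelial cells.

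Genes better known from neurons were among them. Ret, the receptor tyrosine kinase for the GDNF family, stood at 21.9 against 7.35 CPM in WT and 23.6 against 4.93 CPM in F592A. Gap43, a growth cone protein, stood at 27.6 against 8.62 CPM and 22.1 against 4.80 CPM. In endothelial cells Ret stood at 16.3 and 32.5 CPM, in F592A above the members, and Gap43 at 17.1 and 12.3 CPM.

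The other stromal cells include the cells with at least 5 Kera UMIs, which the rule bars from the Pi16 fibroblasts and in which each of the 9 genes named next was highest. Apart from Kera, the lowest were Chst5, a sulfotransferase that acts on keratan sulfate, Mstn, the growth inhibitor myostatin, and Crabp1, a retinoic acid binding protein. Chst5 stood at 2.97 against 27.8 CPM in WT and 1.27 against 24.3 CPM in F592A. Mstn stood at 5.31 against 42.9 CPM and 2.87 against 34.3 CPM. Its level in WT was 91.1 CPM in the Kera cells and 20.9 CPM in the remaining stromal cells, and in F592A 42.0 and 37.4 CPM. Chad stood at 32.5 CPM in WT members, 317 CPM in the Kera cells and 56.5 CPM in the remaining ones. Mmp13, a collagenase, stood at 41.2 against 211 CPM and 55.2 against 363 CPM, and the members' Mmp13 came from 10.0% of WT and 14.0% of F592A cells. Ptx4, Col11a2, the cartilage matrix genes Chad and Ucma, and Tac1, the precursor of substance P, completed the named group, with log2 ratios between -2.36 and -1.86.

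Of the 60 higher genes, 36 were above the Gdf10 cells in both libraries when all members were counted and 52 when only the high tier was. All but 1 of them, 59, were higher in the high than in the low tier in both libraries. These genes were picked as higher in cells selected on Pi16, and Pi16 is among them, so a rise with Pi16 follows in part from the choice. No share over all genes stands beside these counts, which are a description.

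Cells with more Pi16 also held more of the other adventitial transcripts. The tiers were made by Pi16, so they too are a description. The 16 adventitial markers, Pi16 included, summed to 7166, 8858 and 14025 CPM in the low, middle and high tiers of WT and to 5337, 6993 and 13037 CPM in F592A. Of these sums Pi16 alone, which made the tiers, gave 177, 402 and 1739 CPM in WT and 175, 429 and 2348 CPM in F592A. In the high tier 14 of these genes in WT and 15 in F592A, Pi16 among them, were at least 1.5-fold above the low tier, where 4.12% and 5.11% of all measured genes were. Clec3b, the plasminogen-binding tetranectin, stood at 793, 1046 and 1836 CPM along the WT tiers and at 517, 757 and 1423 CPM along the F592A tiers. Cd55, a complement decay accelerator, stood at 159, 180 and 356 CPM and at 99.2, 148 and 320 CPM.

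Tendon genes had the opposite order. The 8 tenocyte markers summed to 4467, 3862 and 2424 CPM along the WT tiers and to 5269, 3897 and 2112 CPM along the F592A tiers, against 7355 and 8486 CPM in the other stromal cells. Tnmd, the tendon membrane glycoprotein tenomodulin, stood at 630, 499 and 212 CPM in WT and at 832, 473 and 189 CPM in F592A. The 6 chondrocyte markers summed to 786 CPM in the low and 345 CPM in the high tier of WT and to 797 and 255 CPM in F592A. The 4 myofibroblast markers summed to 1051 and 488 CPM and to 817 and 277 CPM. The 4 sheath and surface markers rose instead, from 442 to 640 and 747 CPM along the WT tiers. Along the F592A tiers they summed to 353, 481 and 722 CPM, and in the other stromal cells to 736 and 810 CPM. In the macrophage markers the tiers differed as well, with 187, 393 and 321 CPM along the WT tiers and 153, 93.4 and 105 CPM along the F592A tiers, and the part of this RNA was not tested. At least 5 UMIs of Tnmd or of Acan, the cartilage proteoglycan aggrecan, were present in 36.0% of WT and 40.5% of F592A members. The low tier therefore held tendon and cartilage transcripts beside Pi16, and its median depth was also the greatest, at 25433 and 27228 UMIs against 19034 and 24392 UMIs in the high tier. The part of depth in these differences was not tested, although the tiers themselves were set at equal depth.

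**Figure D3:**
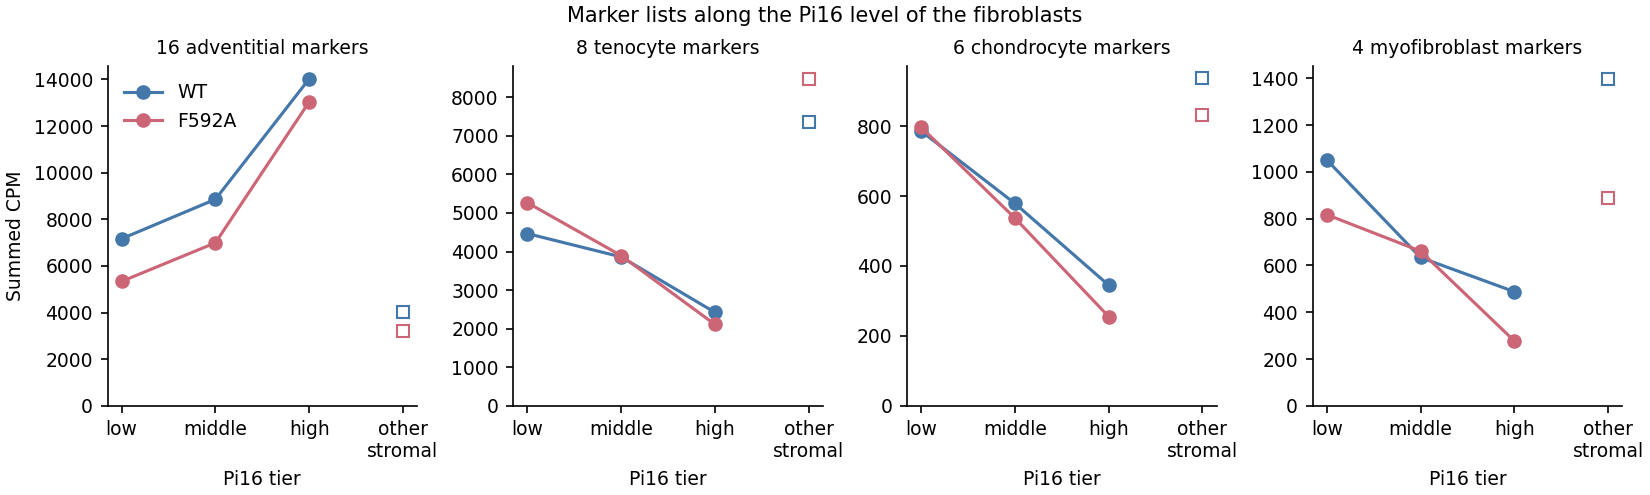
Summed CPM of 4 marker lists (vertical axes, from 0) in the low, middle and high Pi16 tiers as joined points and in the other stromal cells as open squares, blue for WT and red for F592A. The adventitial sum, Pi16 included, is highest in the high tier (14025 and 13037 CPM) and the other 3 sums drawn are lowest there. The sheath and surface markers, which rise along the tiers, are not drawn.

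Over all genes, 61 stood 2-fold or more above the low tier in the high tier of both libraries (1.16% of 5277 compared), and 48 stood 2-fold or more below it (0.91%). After Pi16 the largest WT ratios were those of Myoc, which encodes the secreted protein myocilin, and Pcolce2, an enhancer of procollagen processing, both picked out after their values were seen. Myoc stood at 26.3 and 197 CPM in the low and high tiers of WT and at 32.3 and 181 CPM in F592A. Pcolce2 stood at 28.1 and 143 CPM and at 24.3 and 179 CPM.

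The step from the low to the high tier was larger in the F592A library for most of these genes, as it was for 55.3% of the 5277 genes compared. Of the 16 adventitial markers, Pi16 included, 15 had the larger ratio in F592A, with a median log2 ratio of 1.17 in WT and 1.55 in F592A. Pi16 itself stood at 177 and 1739 CPM in the low and high tiers of WT and at 175 and 2348 CPM in F592A. The high tiers were thus not matched for Pi16 between the libraries, and the part of this in the ratios was not tested. In the low tier all 16 were lower in F592A, 8 of them at least 1.5-fold, whereas in the high tier 12 were lower and 0 reached 1.5-fold. Over all measured genes, 63.9% were lower in F592A in the low tier and 64.6% in the high tier, and 5.46% and 3.83% were at least 1.5-fold lower. Whether the libraries differ in this respect was not tested. Dpp4 stood at 13.9 CPM in the WT and 5.30 CPM in the F592A low tier, but at 41.5 and 34.6 CPM in the high tiers. Efemp1 stood at 60.6 and 23.1 CPM in the low tiers and at 138 and 135 CPM in the high tiers. Among the 8 tenocyte markers, 7 had the larger ratio in F592A, with medians of -1.14 and -1.42.

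A decomposition of the members of each library into principal components, over the 2000 most variable genes, gave a first axis led by genes of the same kinds. The first component held 13.7% of the variance in WT and 12.7% in F592A. Clec3b, Tnxb, Ly6a, Ly6c1, Cd34, Dpt and Igfbp5 lay at its Pi16 end in both, and Col11a1, Fmod, Thbs4, C1qtnf3, Tnmd and Col12a1 at the other. The second component, with 6.17% and 5.48%, ordered the cells by another set of genes. At one end lay S100a4, Crip1, Sema3c, Anxa8, Vcan, Cd55 and Fbn1, and at the other Mgp, an inhibitor of calcification, Igf1, Cxcl12, Igfbp4 and Mt1. C3 and Cxcl14 were among the 12 leading genes of the Mgp end in WT and not in F592A. Pi16 had a loading near 0 on this component in WT (0.001) and a small one with Cd55 in F592A (0.053). The component scores had Spearman correlations with UMIs per cell of -0.23 and -0.28 for the first and 0.27 and 0.22 for the second, across cells of 1 library, which are not independent replicates.

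Pi16 fibroblasts made up 21.1% of WT stromal cells (exact binomial interval 20.1% to 22.1%) and 24.99% of F592A stromal cells (23.7% to 26.3%), a ratio of 1.18 (1.10 to 1.27). All such intervals cover counting error only. The high tier was 6.06% of WT and 8.05% of F592A stromal cells of at least 5000 UMIs, a ratio of 1.33 (1.16 to 1.53). The low tier gave 10.7% and 11.3%, a ratio of 1.06 (0.953 to 1.19). The ratio depended on the limits. It was 1.05 (0.993 to 1.11) with a minimum of 1 Pi16 UMI, 1.07 (0.972 to 1.17) with at least 5% collagen UMIs and 1.36 (1.28 to 1.45) without the Gdf10 and Kera limits. As a share of all kept cells the values were 11.9% and 13.5%. Fewer cells of another type in the digest and more Pi16 fibroblasts cannot be told apart in such shares.

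Between the genotypes, 13 genes stood 2-fold or more higher in F592A Pi16 fibroblasts (0.235% of the 5528 genes with at least 100 UMIs over both libraries and at least 20 CPM in the higher one) and 22 stood 2-fold or more lower (0.398%). With TMM factors or with median-of-ratios factors as the scale the counts were 22 and 22. The median log2 ratio of the 11611 measured genes was -0.09. Of the 13 higher genes, 3 encode ribosomal proteins and 3 more are the abundant Gm42418, AY036118 and Lars2. When these 3, ribosomal protein and mitochondrial genes were left out of the total, the counts became 26 and 25 and the median of all genes 0.01.

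The highest ratio was that of Hmcn2, which encodes hemicentin, an extracellular matrix protein of basement membrane junctions. It stood at 9.24 (WT) and 39.8 CPM (F592A), a log2 ratio of 2.11 (1.93 to 2.29), and was detected in 11.3% and 22.9% of members. The ratio was 1.51 in the other stromal cells and 1.29 in the high tier. Sparcl1, a matricellular protein that endothelial cells also make, stood at 21.1 and 62.6 CPM (log2 ratio 1.57). Its ratio was 0.52 in the other stromal cells and 1.98 in the high tier. The naming rule leaves Sparcl1 out for its level in leukocytes or endothelial cells. The endothelial markers were at 4.95 and 4.10 CPM in the Pi16 fibroblasts, and the part of endothelial RNA in the Sparcl1 ratio was not tested. Il6, the inflammatory cytokine, stood at 37.7 and 82.5 CPM, a log2 ratio of 1.13 (1.03 to 1.23). Its ratio was 1.71 in the high tier and 1.95 in the other stromal cells.

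Mt1 and Mt2, the metallothioneins that bind zinc and copper, were higher together. Mt1 stood at 682 and 1529 CPM and Mt2 at 356 and 768 CPM, with log2 ratios of 1.16 and 1.11. The ratios were 0.93 and 0.92 in the high tier, 1.21 and 1.31 in the other stromal cells and 0.63 and 0.69 in leukocytes. In endothelial cells they were 0.43 (0.24 to 0.63) and 0.15 (-0.05 to 0.35). Slpi, a secreted leukocyte protease inhibitor, gave 2577 and 4604 UMIs in members (log2 ratio 0.96), with ratios of -0.04 in the other stromal cells and 0.25 in the high tier. Its UMIs were concentrated, since 10 cells held 34.8% of them in WT and 39.5% in F592A. Wfdc18 (log2 ratio 1.03) was still more so, with 73.2% and 65.1% in 10 cells. Penk, the enkephalin precursor, stood at 34.5 and 66.9 CPM (0.96), but its ratio in the high tier was -0.02. Gpc3, a cell-surface glypican, stood at 21.5 and 40.9 CPM (0.93), and the remaining named genes were Hist1h4d and Smim27.

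The lowest ratio of the named genes was that of Isg15, a ubiquitin-like protein induced by interferon. It stood at 25.6 (WT) and 5.96 CPM (F592A), a log2 ratio of -2.10 (-2.34 to -1.87), and at -1.83 in the other stromal cells and -2.61 in the high tier. In leukocytes the ratio was -0.21. Of the members 13.5% in WT and 8.41% in F592A held an Isg15 UMI, and 10 cells held 37.1% and 38.8% of its UMIs. Igfbp2, an insulin-like growth factor binding protein, stood at 27.7 and 11.4 CPM, a log2 ratio of -1.28. The other 10 named genes belong to cell division: Ccnb2 (24.9 and 6.48 CPM), Cdca3, Ube2c (44.4 and 13.2 CPM), Birc5, Stmn1, Cdk1, Cenpf, Pclaf, Anln and Cenpa. Their log2 ratios ran from -1.94 to -1.33 in members and from -1.03 to -0.09 in the high tier.

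Genes that the naming rule leaves out were also among the 22 lower ones. Lyz2, Pf4, Il1b and Cd14 are macrophage genes, and the summed macrophage markers in these cells were 266 CPM in WT and 125 CPM in F592A. Their part in those ratios was not tested. Hbb-bs, a haemoglobin gene, had the most negative ratio of all, but 988 of its 1244 UMIs in WT members lay in 1 cell.

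**Figure D4:**
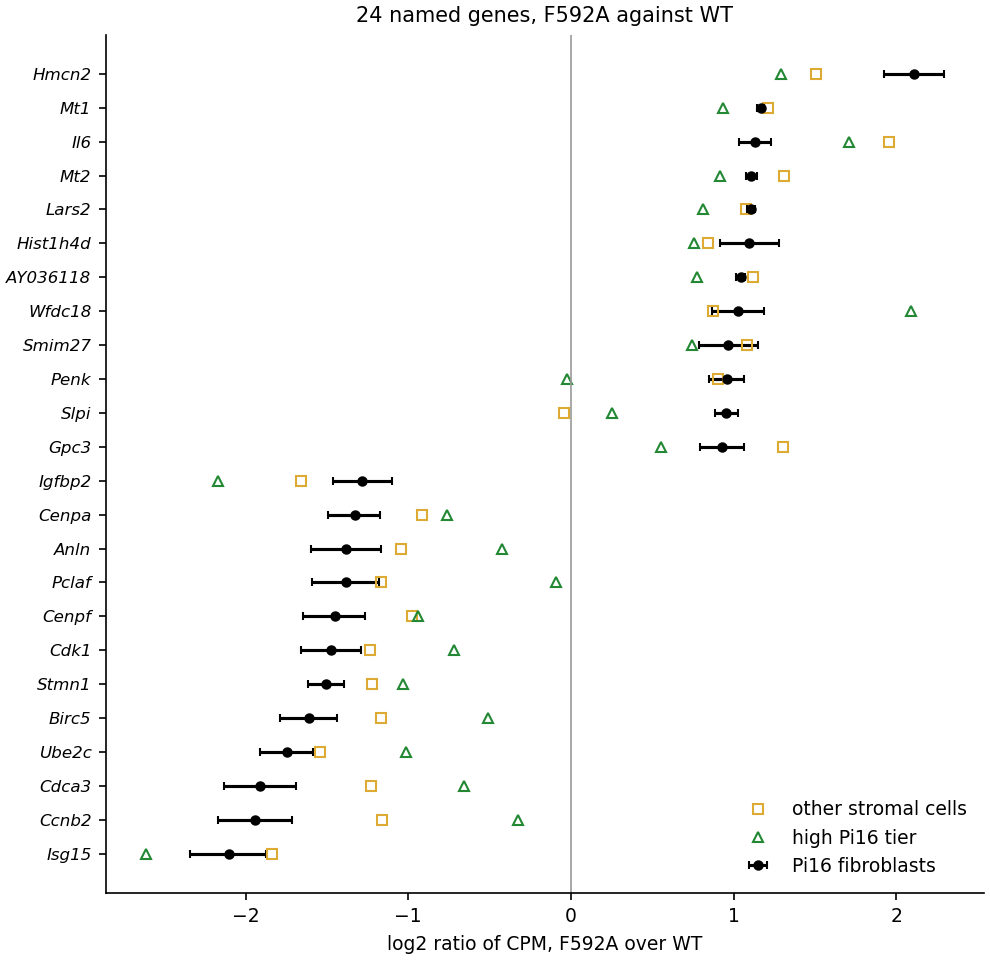
Log2 ratio of CPM, F592A over WT (horizontal axis), for the 24 named genes, with black points and exact intervals for Pi16 fibroblasts, open squares for the other stromal cells and open triangles for the high Pi16 tier. Hmcn2 leads at 2.11 and Isg15 is lowest at -2.10, and the triangles of the cell division genes lie nearer to 0 than their points.

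Sequences upstream of 6 of these genes are shown because the genes belong to groups whose known promoter elements can be looked for: the interferon response element, the cell cycle elements and the metal response element. They are the 250 bases before the RefSeq start (GRCm38.p6), with matches in capitals and all other bases in lower case.
Isg15, chr4:156200819-156201068, minus strand: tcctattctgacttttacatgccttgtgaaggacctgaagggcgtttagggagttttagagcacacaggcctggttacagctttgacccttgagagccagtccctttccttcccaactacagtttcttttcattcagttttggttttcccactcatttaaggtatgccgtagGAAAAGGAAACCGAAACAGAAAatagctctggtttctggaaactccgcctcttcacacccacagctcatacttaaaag
Ccnb2, chr9:70421555-70421804, minus strand: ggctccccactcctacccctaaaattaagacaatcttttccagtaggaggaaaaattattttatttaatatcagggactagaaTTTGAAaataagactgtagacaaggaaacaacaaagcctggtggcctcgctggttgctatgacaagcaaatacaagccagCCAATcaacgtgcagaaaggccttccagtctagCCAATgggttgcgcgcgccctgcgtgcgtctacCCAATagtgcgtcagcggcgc
Cdca3, chr6:124829926-124830175, plus strand: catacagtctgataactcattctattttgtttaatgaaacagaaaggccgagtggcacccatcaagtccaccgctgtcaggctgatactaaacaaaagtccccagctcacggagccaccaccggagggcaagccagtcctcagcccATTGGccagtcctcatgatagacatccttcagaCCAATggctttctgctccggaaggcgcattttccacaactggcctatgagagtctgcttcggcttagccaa
Ube2c, chr2:164769679-164769928, plus strand: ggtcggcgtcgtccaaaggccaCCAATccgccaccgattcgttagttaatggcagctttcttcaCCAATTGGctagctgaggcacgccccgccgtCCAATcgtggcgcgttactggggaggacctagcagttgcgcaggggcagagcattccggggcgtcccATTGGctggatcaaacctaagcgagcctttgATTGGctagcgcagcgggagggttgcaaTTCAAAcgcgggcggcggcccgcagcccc
Mt1, chr8:94178839-94179088, plus strand: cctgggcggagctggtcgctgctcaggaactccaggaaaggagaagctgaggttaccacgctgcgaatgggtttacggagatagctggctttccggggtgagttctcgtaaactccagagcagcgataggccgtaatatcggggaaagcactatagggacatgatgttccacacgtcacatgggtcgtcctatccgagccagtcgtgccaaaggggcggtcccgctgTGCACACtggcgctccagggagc
Mt2, chr8:94172368-94172617, plus strand: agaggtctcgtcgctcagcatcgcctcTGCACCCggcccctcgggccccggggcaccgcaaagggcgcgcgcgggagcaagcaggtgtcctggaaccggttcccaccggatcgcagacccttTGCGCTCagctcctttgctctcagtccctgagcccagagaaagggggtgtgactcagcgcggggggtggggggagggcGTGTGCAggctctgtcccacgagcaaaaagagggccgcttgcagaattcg
In Isg15 the capitals mark 3 overlapping matches to GAAA, any 2 bases, GAAA, the core of the interferon response element, which begin 78, 72 and 66 bases before the start. In Ccnb2, Cdca3 and Ube2c they mark CCAAT, the CCAAT box bound by NF-Y (3, 2 and 6 matches), and TTTGAA or TTCGAA, the cell cycle homology region bound by the DREAM and MuvB complexes (1, 0 and 1 matches). In Mt1 and Mt2 they mark TGCACNC or TGCGCNC, the core of the metal response element bound by MTF1 (1 and 3 matches). Both strands were searched. Of all 32851 promoters of this length, 2.98% held the interferon response core, 33.8% CCAAT, 17.1% the cell cycle homology region and 21.4% the metal response core. The matches are a description of these letters and not of binding.

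Of the 11611 measured genes, 267 were at least 1.5-fold higher in F592A Pi16 fibroblasts (2.3%) and 570 at least 1.5-fold lower (4.91%), which sets the background for the gene lists below. The cell cycle list stood farthest from the median of all genes. All 44 genes were measured, 37 were at least 1.5-fold lower in F592A and 0 higher, and the median log2 ratio was -1.21. In the other stromal cells the median was -0.88 and in the high tier -0.50, over 30 measured genes. The highest ratios of the list were those of Pcna (53.7 and 47.7 CPM) and Tuba1c (61.0 and 51.5 CPM), which are also used outside division.

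The share of members with at least 2 UMIs of this list at 5000 UMIs was 75.5% in WT and 68.1% in F592A, a ratio of 0.902 (0.858 to 0.948). These shares cannot be read as cycling cells, since the same measure gave 98.5% and 97.2% in leukocytes. For 25 mitotic genes, a list drawn up after the data were seen, a UMI was found in 17.9% (15.9% to 20.1%) of WT and 11.3% (9.53% to 13.3%) of F592A members, a ratio of 0.631 (0.518 to 0.770). The ratio was 0.709 (0.641 to 0.784) in the other stromal cells, 0.729 (0.659 to 0.806) in leukocytes and 0.732 (0.608 to 0.882) in endothelial cells. Without the members that held such a UMI, 10 genes stood 2-fold or more higher and 8 lower. That choice removes cells by the cell division genes themselves, so it says nothing on those genes.

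Among the lists below the all-gene median, the interferon list was the next. Of 24 measured genes 7 were at least 1.5-fold lower and 0 higher, and the median log2 ratio was -0.42. In the other stromal cells it was -0.42 over 28 measured genes. Ifit1 stood at 10.1 and 1.24 CPM, Ifit3 at 6.39 and 1.14 CPM, and both encode proteins that bind foreign RNA or its sensors. The transcription factor Irf1 (90.4 and 101 CPM) and the MHC class I light chain B2m (348 and 380 CPM) had its highest ratios. On the list of hypoxia and glycolysis, with a median of -0.27, Ankrd37 gave 250 and 84 UMIs, and Hk2, a hexokinase, stood at 128 and 214 CPM.

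The adventitial list, which holds the cells' own defining genes, had a median of -0.25 over 33 measured genes, with 1 at least 1.5-fold higher and 4 lower. Its lowest members were Wnt2, a secreted signal (18.2 and 8.57 CPM), Igfbp6 (1558 and 910 CPM), the Cxcl12 scavenger Ackr3 (366 and 226 CPM) and Dpp4 (21.7 and 14.3 CPM). Its highest was Gli1, a transcription factor and target of Hedgehog signalling, at 1.26 and 2.93 CPM. Of the 10 measured Hedgehog genes 3 were at least 1.5-fold higher and 0 lower.

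The list of parenchymal fibroblast genes, which mark fibroblasts away from the adventitia, had a median of 0.25, with 6 of 20 genes at least 1.5-fold higher and 0 lower. Col4a1 and Col4a2, the basement membrane collagen chains, stood at 108 and 173 CPM and at 69.2 and 125 CPM. In the high tier this median was 0.09 and in the other stromal cells 0.38. The osteogenic list had the highest median, 0.58 over 9 measured genes, with 4 higher and 1 lower. Spp1, the matrix phosphoprotein osteopontin, stood at 118 and 215 CPM, Mef2c at 30.1 and 45.5 CPM, and Tnfrsf11b, the decoy receptor osteoprotegerin, at 19.5 and 13.0 CPM. Spp1 is a gene that the naming rule leaves out. The list summed to 209 (WT) and 332 CPM (F592A) in members and to 2823 and 1318 CPM in leukocytes, and the part of leukocyte RNA was not tested. The median was 0.03 in the other stromal cells over 13 measured genes.

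Chemokines and cytokines differed in both directions, with 5 of 26 genes at least 1.5-fold higher and 4 lower. Beside Il6, the eosinophil chemokine Ccl11 stood at 7.26 and 15.3 CPM and Cxcl14 at 199 and 364 CPM. The monocyte chemokine Ccl2 stood at 891 and 506 CPM, the neutrophil chemokine Cxcl5 at 241 and 131 CPM, and Il1rl1, the receptor for interleukin 33, at 44.5 and 19.0 CPM. The Cxcl14 ratio was larger in the high tier, where the levels were 189 and 433 CPM, than in the low tier, with 178 and 318 CPM. Serpina3n stood at 175 and 320 CPM over all members and at 283 and 529 CPM in the high tier. C3 had a log2 ratio of 0.00 (-0.05 to 0.06) over all members, with levels of 143 and 119 CPM in the low tier and 241 and 298 CPM in the high tier.

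On the list of neurotrophins and their receptors, 12 of 19 genes were measured in Pi16 fibroblasts. Of these, 3 were at least 1.5-fold higher and 0 lower, with a median log2 ratio of 0.21. TrkA is a neurotrophin receptor, whereas the GDNF receptor genes and the sorting receptor Sort1 named below are not of its family. Bdnf, a neurotrophin, stood at 20.6 and 23.8 CPM. Ngfr, the shared neurotrophin receptor, gave 6 and 13 UMIs, too few to compare. Among receptors, Ntrk2, which binds BDNF, stood at 6.81 and 12.1 CPM, the GDNF co-receptor Gfra1 at 13.5 and 23.1 CPM and the sorting receptor Sort1 at 1.92 and 3.52 CPM. Ret and its co-receptor Gfra2 had log2 ratios of 0.10 (-0.05 to 0.25) and 0.04 (-0.11 to 0.20).

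Among the matrix lists, the collagen list had a median of 0.07, with 2 of 24 genes at least 1.5-fold higher and 1 lower. The elastic fibre list had a median of -0.06, with 0 of 19 higher and 1 lower. The matricellular list also had a median of -0.06, but with 3 of 22 genes higher and 2 lower. Within the IGF list Igfbp2 and Igfbp6 were the 2 genes at least 1.5-fold lower, and Igf2 stood at 78.5 and 98.2 CPM. Genes of the glucocorticoid response had a median of 0.13, with 5 of 18 higher and 0 lower, and the highest 2 were Mt1 and Mt2. Immediate early genes, which cell dissociation can induce, had a median of 0.12 with 0 of 30 past 1.5-fold in either direction.

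**Figure D5:**
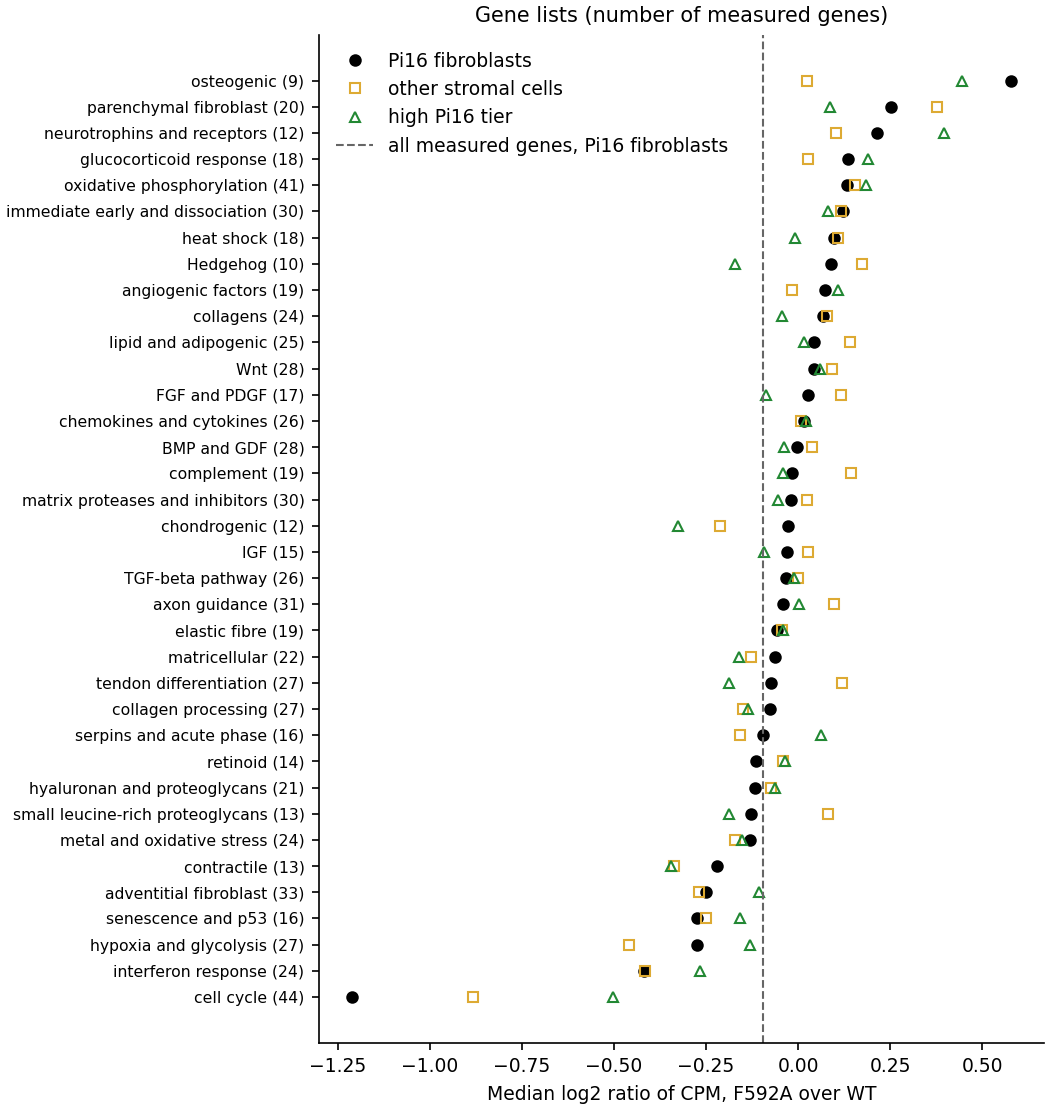
Median log2 ratio of CPM, F592A over WT (horizontal axis), for 36 gene lists in Pi16 fibroblasts (black points), the other stromal cells (open squares) and the high Pi16 tier (open triangles), with the number of measured genes in brackets and a dashed line at the median of all measured genes, -0.09. The cell cycle list lies farthest left at -1.21 and the osteogenic list farthest right at 0.58.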

How the data were processed

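The deposited files hold UMI counts per gene and barcode of 2 10x Genomics libraries, which the authors made with Cell Ranger. The matrix headers name version 6.0.1 and the submitters' processing notes version 2.1.1, with Seurat and the mm10 build. Barcodes needed at least 1000 UMIs, 500 genes, at most 15% mitochondrial UMIs and no counterpart in the other library. Counts were summed per class and divided by the class total (CPM). Intervals are 95%: exact Poisson for CPM, exact conditional binomial for ratios, exact binomial for shares and Katz for ratios of shares. They cover counting error only.

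No test between genotypes was possible with 1 library each, so genes were compared by size: at least 100 UMIs over both libraries, 2-fold apart, and 20 CPM in the higher. Thinning drew 5000 UMIs per cell without replacement. Leukocytes were cells with at least 2 Ptprc UMIs, no Pecam1 and under 1% collagen UMIs. Endothelial cells had at least 2 Pecam1 UMIs, no Ptprc and under 2% collagen. Doublets were called with Scrublet (scanpy 1.11.5) and kept. The size rule and intervals were tested on simulated Poisson counts, the model that the intervals assume. The simulation left out the uneven spread of UMIs over cells, so it says nothing on that spread.

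The named genes were the 12 highest and 12 lowest ratios between genotypes, and the 15 highest and 10 lowest between Pi16 fibroblasts and other stromal cells. This naming passed over ribosomal, mitochondrial, haemoglobin, immunoglobulin, sex-specific and unnamed genes, and genes whose members' CPM was below 1/4 of that in leukocytes or endothelial cells. Sex-specific was read as genes expressed in only one sex, so the X-linked Gpc3 was kept. Up to 4 examples, those with the highest and lowest ratios, were taken from each of 36 lists. Other list members and the genes passed over that the text names were picked after their values were seen. The members, lists and rules were chosen with earlier results of these data known. Some genes are not reported here.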

Additional observations from a re-analysis of the deposited data

Results flagged for a closer look

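Cxcl9, a chemokine induced by interferon gamma, had a log2 ratio of F592A over WT of 1.01 (0.61 to 1.41) in Pi16 fibroblasts and of -1.61 (-1.99 to -1.25) in the other stromal cells, which are opposite directions. The difference between the classes was not tested. The levels were low, with 2.46 and 4.95 CPM in Pi16 fibroblasts and 2.68 and 0.876 CPM in the other stromal cells. One F592A Pi16 fibroblast held 75 of the 152 UMIs.

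Pi16 was also found in cells outside the comparisons. In endothelial cells of the F592A library it stood at 56.2 CPM (51.7 to 60.9), against 4.00 CPM (2.74 to 5.65) in those of the WT library. Of the 577 F592A UMIs, 527 lay in 6 of 649 cells with at least 5 Pi16 UMIs, where collagen made up 0.498% to 1.76% of UMIs. Whether these are doublets was not tested.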

How the results depend on the processing

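No paired analysis was possible because each genotype was 1 library. The ratio of shares, 1.18, was 1.05 with 1 Pi16 UMI, 1.27 with 5, 1.07 with at least 5% collagen, and, in alternatives chosen after seeing the data, 1.36 without the Gdf10 and Kera limits and 1.33 for the high tier. It kept to between 1.16 and 1.23 under the other 5. The 13 higher genes became 22 with TMM and 22 with median-of-ratios factors, and, in added alternatives, 26 with a total that leaves out ribosomal protein, mitochondrial and 3 abundant genes and 24 without members with Tnmd or Acan. The 22 lower genes became 11 without members with cell cycle UMIs and 8 without those with mitotic UMIs, both of which remove cells by genes that are among the 22. Of the 36 lists, 8 lay at least 0.2 from the all-gene median, and 15 without members with Tnmd or Acan. The ratio of cell cycle shares, 0.902, was 0.687 at 2000 UMIs, 0.956 with 1 UMI, 0.992 without thinning and 0.631 with 25 mitotic genes. The counts against other stromal cells and between the tiers stayed within 1.5 times in each alternative run. Penk was the one named gene to change sign, at -0.022 in the high tier. Where no cause is given, the cause was not tested.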

Other observations

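Cdkn2a, a cell cycle inhibitor and mark of senescence, gave 386 UMIs in WT and 138 in F592A Pi16 fibroblasts, a log2 ratio of -1.37, while the senescence and p53 list had a median of -0.27 over 16 genes with 2 at least 1.5-fold lower. Crabp1, a retinoic acid binding protein, stood at 5.01 and 1.27 CPM, and Aldh1a2, an enzyme of retinoic acid synthesis, at 2.73 and 6.87 CPM. Of the metal and oxidative stress genes other than the metallothioneins, Gsta4, a glutathione transferase, stood at 7.35 and 1.17 CPM, and Gpx3, a secreted glutathione peroxidase, at 207 and 371 CPM. Ibsp, the bone sialoprotein, gave 2 UMIs in WT and 177 in F592A members.

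Among barcodes that failed the filters on UMIs, genes or mitochondrial share, 38 in WT and 40 in F592A met the remaining conditions for Pi16 fibroblasts, and so did 2 and 5 of the barcodes shared by the libraries.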
